A study of Homo sapiens with 9 samples.

Results

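The comparison set the oxaliplatin-resistant ovarian carcinoma line IGROV-1/OHP directly against the cisplatin-resistant line IGROV-1/Pt1, with 3 arrays of each line. These are 6 of the 9 arrays in the series, and the other 3 hold the parental IGROV-1 cells. IGROV-1 is an established human ovarian carcinoma line. Exposure of it to oxaliplatin gave IGROV-1/OHP, and exposure to cisplatin gave IGROV-1/Pt1, so all groups share 1 origin. Each resistance is represented by 1 derived line, and the labels give neither dose nor duration nor whether a line is a clone. Cultures were growing exponentially at harvest, and the series' description speaks of independent samples, 3 to a line. The arrays are 1-colour Illumina bead arrays for microRNA (miRNA). A probe was tested when its deposited intensity was 167 or more on at least 3 of the 9 arrays, which held for 705 of 1145 probes. This level is a setting and not a detection call. Ranked by the intensity that decided entry, the probe just inside the rule stood at 167.5 and the probe just outside at 166.5.

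MicroRNAs are short RNAs that guide Argonaute proteins to messenger RNAs and lower their translation or stability. Many are made from clusters of neighbouring hairpins, so several can change together. Cisplatin and oxaliplatin both crosslink DNA, and oxaliplatin carries a bulky diaminocyclohexane ligand in place of the ammine ligands of cisplatin. Lines selected on one of the drugs need not resist the other to the same degree. The question the comparison addresses is which miRNA signals tell apart the derived lines measured here. Whether a difference goes with the selecting drug or with the particular line was not tested, as no further line was measured for either drug. The adjusted p-values rest on the spread among samples of the same line, and do not extend to other lines selected on these drugs. The probes carry Illumina identifiers that the files do not pair with miRNA names, and 0 of the 1145 occurred in the reference tables. No miRNA, seed sequence, family or gene is therefore named, and the ovarian or epithelial character of the cells could not be checked against marker miRNAs.

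Replicate arrays of a line resembled each other more than arrays of the other resistant line. Across the 705 probes, which are not independent replicates, Pearson correlations of log2 intensity were 0.941 to 0.984 within IGROV-1/OHP and 0.981 to 0.994 within cisplatin-resistant cells, and 0.870 to 0.923 between arrays of the lines. IGROV-1/OHP replicate 2 stood somewhat apart, correlating at 0.965 and 0.941 with replicates 1 and 3, whereas those correlated at 0.984 with each other. The spread of a probe over replicates was wider in IGROV-1/OHP, with a median SD of 0.25 on the log2 scale against 0.16 in cisplatin-resistant cells (n = 3 each). A range of 2-fold or more among replicates was found for 143 probes in IGROV-1/OHP and 62 in cisplatin-resistant cells. The array medians lay between 240.2 and 241.2, as equalised values do, and more or less miRNA per cell would not show in them.

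Of the 705 probes, 117 differed between the resistant lines, a share of 16.6% (limma, adjusted p below 0.05). IGROV-1/OHP was higher at 61 of them, or 8.65%, and lower at 56, or 7.94%. Each array averages a culture, so more of a miRNA in every cell and more cells that carry it cannot be told apart. The balance of the directions depended on scaling, since cyclic loess gave 50 higher and 77 lower calls, and centring each array on its median log ratio gave 49 and 67. The sizes were less even than the counts. The median difference of the called probes was 0.86 on the log2 scale (1.81-fold) where IGROV-1/OHP was higher and -1.43 (2.70-fold) where it was lower. A measured difference of at least 2-fold was found at 63 called probes, 8.94% of those tested, 25 with IGROV-1/OHP above and 38 with it below. At 4-fold or more these numbers were 7 and 20, and at 8-fold or more 2 and 13. Where a line lay below the filter level on all its arrays, its value was also set at that level, which makes the fold a lower bound. This applied to 5 higher and 11 lower called probes. At these bounds the medians were 0.78 and -1.33 on the log2 scale, and 2 higher and 11 lower probes reached 8-fold. As measured, 2 and 14 reached it after cyclic loess, and 2 and 13 after centring. When only the 555 probes at the filter level on all 9 arrays were tested, 95 were called, 60 higher and 35 lower, with 2 and 4 at 8-fold or more, since that filter removes probes that are dim in a line.

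**Figure D1:**
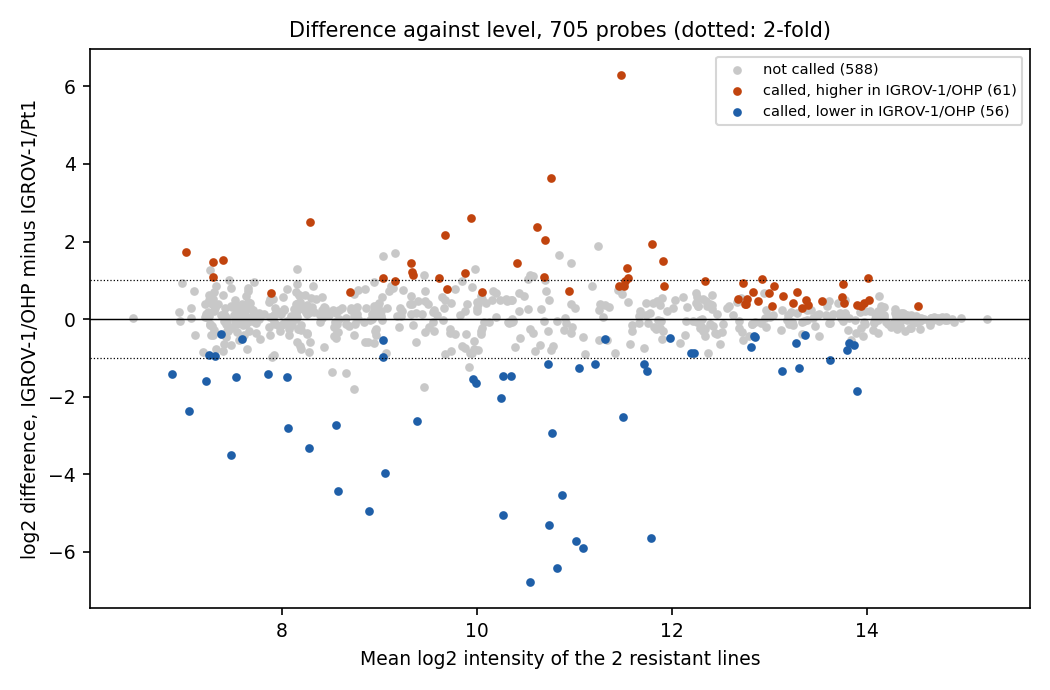
Difference in log2 intensity, oxaliplatin-resistant minus cisplatin-resistant cells (vertical axis) against the mean log2 intensity of both resistant lines (horizontal axis) for the 705 tested probes, 1 point per probe. The 61 called probes above 0 lie mostly within 2 log2 units, whereas the 56 below 0 reach -6.78.

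The largest difference in favour of IGROV-1/OHP was at probe ILMN_3168483. Its intensity was 25597, 26466 and 24113 on the IGROV-1/OHP arrays, against 330.5, 396 and 254 on the IGROV-1/Pt1 arrays. No array of either line came near the other line, and the difference was 78.9-fold (log2 6.30, SE 0.16, limma adjusted p = 1.6e-07). The next, ILMN_3167344, read 6589.9, 3718 and 9483 in IGROV-1/OHP cells, against 297, 347 and 1157 in cisplatin-resistant cells. Here the lines did not overlap but both were scattered, and the highest IGROV-1/Pt1 array, replicate 3, stood well above its other arrays. The difference was 12.5-fold (log2 3.64, SE 0.56, limma adjusted p = 0.0042).

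Below these, the differences in favour of IGROV-1/OHP were smaller and closely graded. The probe of rank 3 was at 2944, 2053 and 2406 in IGROV-1/OHP cells, against 322, 528 and 369.5 in cisplatin-resistant cells. That of rank 5 was at 3974, 2679 and 4296 in IGROV-1/OHP cells, against 656, 637 and 792 in cisplatin-resistant cells. Both were separated with a wide margin, by 6.14-fold (log2 2.62, SE 0.26, limma adjusted p = 3.5e-04) and by 5.17-fold (log2 2.37, SE 0.22, limma adjusted p = 2.2e-04). At rank 7 the IGROV-1/OHP arrays read 4133, 3038 and 3038, against 858, 883 and 718 in cisplatin-resistant cells, a difference of 4.12-fold (log2 2.04, SE 0.17, limma adjusted p = 1.5e-04). The 12 largest differences in this direction spanned 2.76-fold to 78.9-fold as measured, with a median of 4.30-fold. IGROV-1/Pt1 lay below the filter level on all arrays at 4 of the 12, those of ranks 4, 9, 10 and 12. For these the bounds were at least 4.48-fold, 1.41-fold, 1.71-fold and 1.56-fold. The probe of rank 10 was the only one of the 24 probes in both directions to lose its call under the other settings tried, stricter thresholds aside, at log2 1.39 without IGROV-1/OHP replicate 1 (limma adjusted p = 0.0504).

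**Figure D2:**
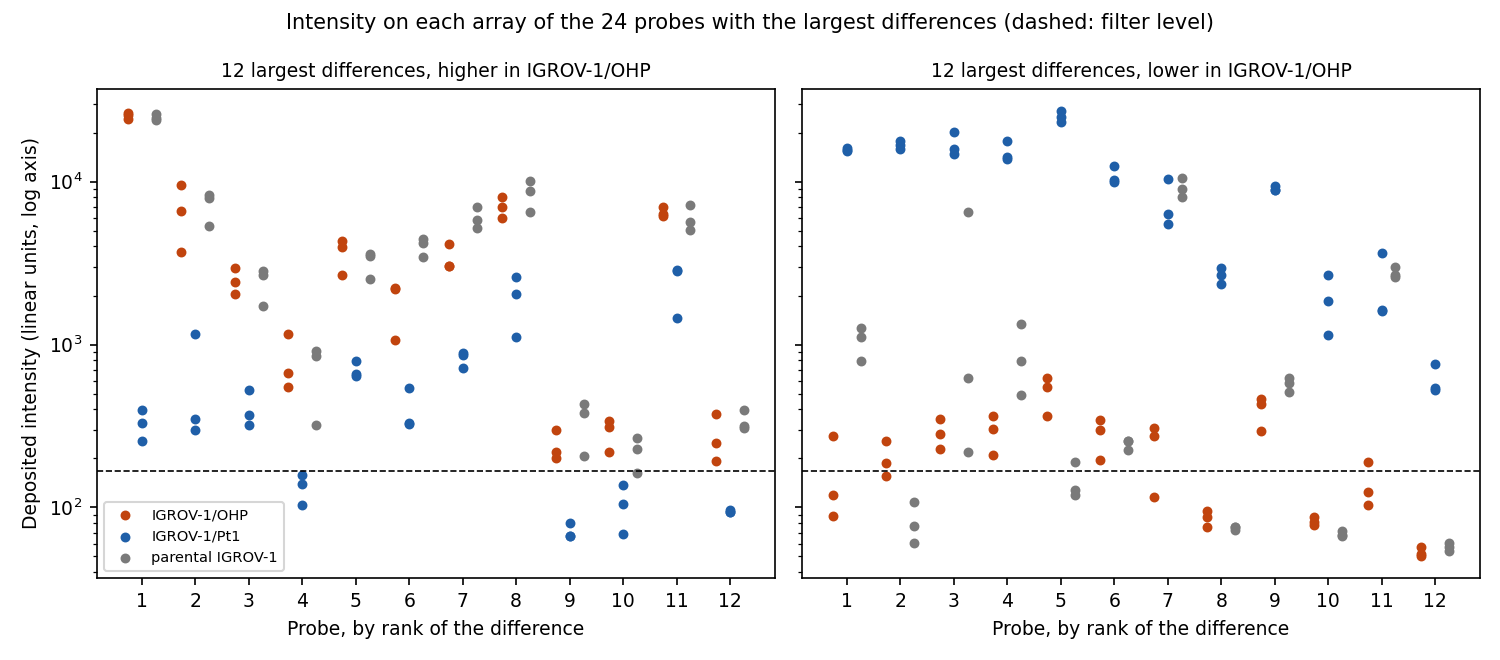
Deposited intensity (log axis) on every array of the 12 probes most strongly higher (left) and the 12 most strongly lower (right) in IGROV-1/OHP than in cisplatin-resistant cells, by rank of the difference. Points are single arrays of IGROV-1/OHP, IGROV-1/Pt1 and parental cells, and the dashed line is the filter level of 167. In the right panel the IGROV-1/OHP points lie between 50.6 and 626, below all IGROV-1/Pt1 points of the same probe.

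In the other direction a set of probes was bright in cisplatin-resistant cells and dim in IGROV-1/OHP. ILMN_3167656 read 120, 275 and 88.2 on the IGROV-1/OHP arrays, against 16141, 15425 and 15622 on the IGROV-1/Pt1 arrays. The IGROV-1/Pt1 arrays were tight, and the IGROV-1/OHP arrays were scattered about the filter level, which only replicate 2 reached. The measured difference was 110.2-fold (log2 -6.78, SE 0.39, limma adjusted p = 1.8e-05). ILMN_3167116 read 157, 187 and 256 in IGROV-1/OHP cells, against 16831, 17842 and 15802 in cisplatin-resistant cells, 85.9-fold lower (log2 -6.42, SE 0.24, limma adjusted p = 2.1e-06). Replicate 1 of IGROV-1/OHP was below the level here.

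The probes of ranks 3 to 6 in this direction had the same form, with IGROV-1/OHP between 195.4 and 626 and IGROV-1/Pt1 at 9911 or more. At rank 3 the arrays read 284, 227 and 350.2 in IGROV-1/OHP cells, against 15930, 20183 and 14689 in cisplatin-resistant cells. The difference was 59.4-fold with a wide error (log2 -5.89, SE 1.07, limma adjusted p = 0.0094). The fit pools the spread of all lines, and the parental arrays of this probe read 6533, 218 and 620.0. With only the 6 arrays of the resistant lines in the fit, its limma adjusted p was 5.8e-05. At rank 5 the arrays read 362.5, 548 and 626 in IGROV-1/OHP cells, against 24823, 27072 and 23369 in cisplatin-resistant cells, 50.2-fold lower (log2 -5.65, SE 0.24, limma adjusted p = 3.1e-06). At rank 6 they read 299, 195.4 and 344 in IGROV-1/OHP cells, against 10184, 12500.2 and 9911 in cisplatin-resistant cells, 39.7-fold lower (log2 -5.31, SE 0.21, limma adjusted p = 2.1e-06). All arrays of IGROV-1/OHP lay above the filter level in these, but that level is no detection call, so whether these values exceed background is not known. The 12 largest differences spanned 11.3-fold to 110.2-fold as measured, with a median of 36.5-fold. IGROV-1/OHP lay below the filter level on all arrays at 3 of them, those of ranks 8, 10 and 12, for which the bounds were at least 15.8-fold, 10.6-fold and 3.59-fold. The spread in cisplatin-resistant cells was uneven among them. At rank 7 its replicate 3 read 10320.4, against 5465 and 6362 on its other arrays, and at rank 11 it read 3644, against 1601 and 1624.

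Some probes reached the filter level in a single resistant line. There were 14 that lay below it on all IGROV-1/OHP arrays and at or above it on all IGROV-1/Pt1 arrays, and 7 with the reverse pattern. Of the 14, 11 were called, and their means in cisplatin-resistant cells ran from 189 to 2648 with a median of 303. Their bounds were at least 1.13-fold to at least 15.8-fold. The highest, at rank 8, read 95.5, 76.1 and 86.8 in IGROV-1/OHP cells, against 2345, 2944 and 2655 in cisplatin-resistant cells, and was at least 15.8-fold lower in oxaliplatin-resistant cells (limma adjusted p = 1.6e-07 on the measured difference). Of the 7, 5 were called, with IGROV-1/OHP means of 233 to 789 and bounds of at least 1.37-fold to at least 4.48-fold. These probes entered the test through the line in which they are bright, or through the parental arrays, so their number is a description, and nothing is read from it against the 16.6% of all tested probes. Among the 573 probes at the level on all 6 arrays of the resistant lines, 92 were called, 56 higher and 36 lower. This is 16.1%, near the 16.6% of all tested probes.

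Calls were found over the whole range of intensity, but neither their share nor their size was even. Classes used the mean of untransformed intensities, which the brighter line dominates, so a large difference helps to place its own probe. ILMN_3168483 counted at 10000 or more with a mean of 327 in cisplatin-resistant cells. The class below 300 cannot hold the largest folds, as the lowest array values were near 41. The pattern over classes is therefore partly built in. Against 16.6% of all tested probes, the share called was 17.0% where the mean of both lines was 10000 or more, 27.9% between 3000 and 10000, 21.4% between 1000 and 3000, 11.4% between 300 and 1000, and 8.70% below 300. At 10000 or more, 25 of 147 probes were called, 15 higher and 10 lower, with a median size of 1.52-fold, and 7 reached 2-fold. Between 3000 and 10000, 38 of 136 were called, 22 higher and 16 lower, with a median of 1.88-fold. Between 1000 and 3000, 22 of 103 were called, 10 higher and 12 lower, with a median of 2.76-fold. Between 300 and 1000 there were 18 of 158, 9 in each direction, with a median of 2.53-fold. Below 300, 14 of 161 were called, 5 higher and 9 lower, with a median of 2.65-fold. Replicate spread differed along the same axis. Its median in IGROV-1/OHP was 0.10 on the log2 scale at 10000 or more and 0.42 between 1000 and 3000, against 0.07 and 0.23 in cisplatin-resistant cells. Of the 26 called probes under 1.5-fold, 22 had a mean intensity of 3000 or more, and the smallest called difference was 1.22-fold.

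For 384 of the 588 probes that did not pass the threshold, the whole 95% interval stayed inside 2-fold either way, and for 211 inside 1.5-fold. The remaining 204 had intervals reaching beyond 2-fold, so a 2-fold difference was not excluded at this precision. A measured difference of 2-fold or more without a call was seen at 19 probes, with IGROV-1/OHP above at 14 and below at 5, and the greatest was 3.68-fold. These were scattered probes, with a median SD of 0.88 in IGROV-1/OHP and 0.34 in cisplatin-resistant cells on the log2 scale, and at 10 of the 19 the arrays of the lines overlapped. The 63 called probes of at least 2-fold had median SDs of 0.36 in IGROV-1/OHP and 0.24 in cisplatin-resistant cells. At the other end, the whole 95% interval lay beyond 2-fold at 9 higher and 23 lower probes. Complete separation of the arrays of the lines was found at 279 probes, or 39.6% of the 705, with IGROV-1/OHP above at 158 and below at 121.

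The parental cells give a level against which both lines can be read. The comparisons of each line with them use the same 3 parental arrays and are set side by side only as values. The probes were selected on the difference between the resistant lines, which equals the gap between these comparisons. Some separation of the medians is therefore built in. Over the 61 probes higher in IGROV-1/OHP, the median log2 difference from parental cells was 0.14 for IGROV-1/OHP (quartiles -0.13 and 0.52) and -0.54 for IGROV-1/Pt1 (quartiles -1.31 and -0.28). Over the 56 lower probes it was -0.12 for IGROV-1/OHP (quartiles -0.70 and 0.26) and 1.5 for IGROV-1/Pt1 (quartiles 0.20 and 2.44). With every line that lay below the filter level on all its arrays set at that level, which included the parental cells at 13 of the 56, the medians of the lower probes were -0.06 and 0.82, and those of the higher probes were 0.14 and -0.53. For ILMN_3168483 the parental arrays read 23952, 24445 and 25965, within the range of IGROV-1/OHP or close to it. For ILMN_3167344 they read 8228, 7941 and 5358. Among the 12 strongest higher probes, the log2 difference from parental cells ran from -1.21 to 0.40 in IGROV-1/OHP and from -6.27 to -1.12 in cisplatin-resistant cells as measured, or to -0.37 with IGROV-1/Pt1 set at the filter level where all its arrays lay below it.

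The 12 strongest lower probes were more mixed in their parental levels. At ILMN_3167116 the parental arrays read 60.3, 108 and 76.7, below both resistant lines and below the filter level. With the parental cells set at that level, IGROV-1/Pt1 was at least 101-fold higher (measured log2 difference 7.73). IGROV-1/OHP, kept as measured though its replicate 1 also lay below the level, was 1.17-fold above it (measured log2 difference from parental cells 1.30). At ILMN_3167656 they read 788, 1266 and 1118, between the lines, with log2 differences of -2.86 for IGROV-1/OHP (-3.78 to -1.95) and 3.92 for IGROV-1/Pt1 (3.01 to 4.84). The probes of ranks 7 and 11 were bright in parental cells. At rank 7 the arrays read 276, 115 and 307 in IGROV-1/OHP cells, against 5465, 6362 and 10320.4 in cisplatin-resistant cells, and the parental arrays read 10482, 8959 and 8102. The log2 differences from parental cells were -5.42 for IGROV-1/OHP and -0.36 for IGROV-1/Pt1. At rank 11 these were -4.36 and -0.38. At ranks 8, 10 and 12 the parental means were 74.9, 68.6 and 57.2, all below the filter level, as were the IGROV-1/OHP means of 86.1, 82.2 and 53.2.

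**Figure D3:**
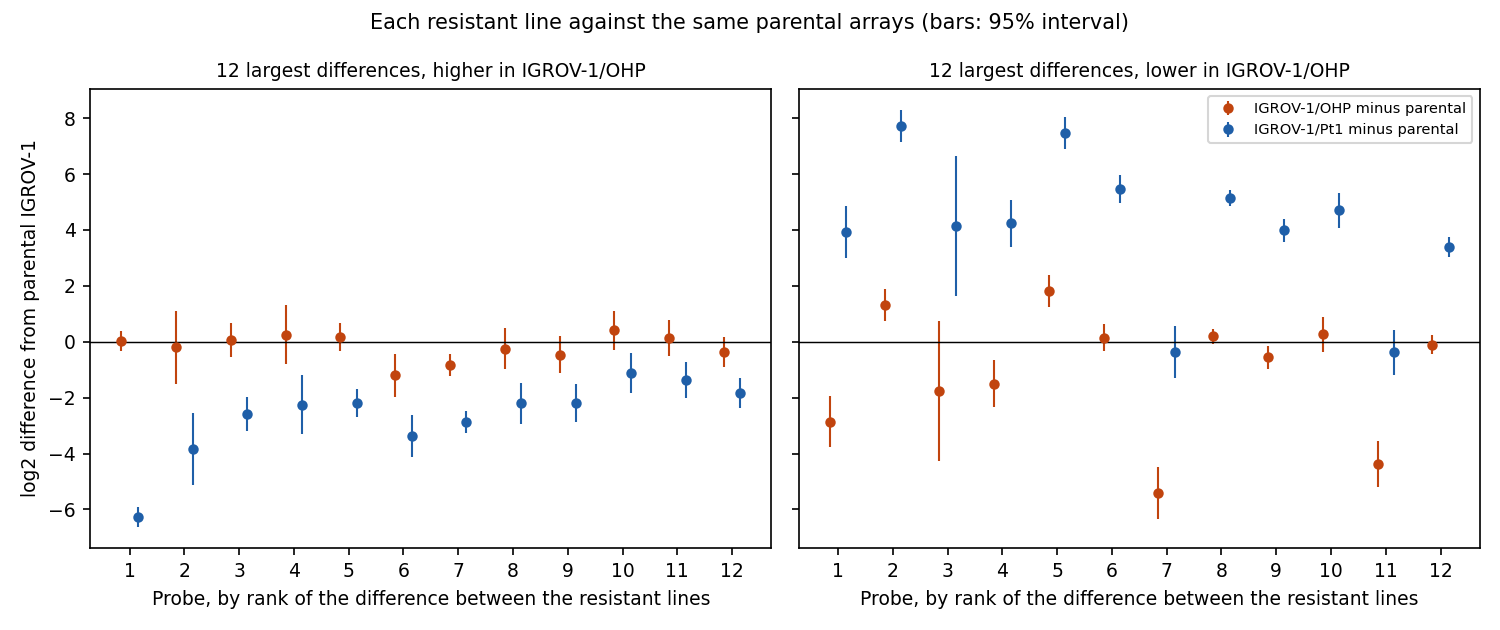
Log2 difference from parental cells of IGROV-1/OHP and of IGROV-1/Pt1, as measured and with 95% intervals of the fit, for the 12 probes most strongly higher (left) and the 12 most strongly lower (right) in IGROV-1/OHP than in cisplatin-resistant cells. In the left panel the IGROV-1/OHP values lie between -1.21 and 0.40, and in the right panel the IGROV-1/Pt1 values lie between -0.38 and 7.73. Both sets of values share the parental arrays, and the probes were selected on the gap between them. Values that involve a line below the filter level are not bounds here.

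The call count depended on which arrays were in the fit. Without IGROV-1/OHP replicate 2, the array that stood apart, 126 probes were called, including 97 of the 117. With array weights, which gave this array the lowest weight of the 9, there were 200 calls, 116 higher and 84 lower. Without IGROV-1/OHP replicate 1 there were 83, 34 higher and 49 lower. Each IGROV-1/Pt1 array moved the count more than any other array that lowered it. Leaving out its replicate 1 gave 36 higher and 40 lower calls, and 73 of the 117 remained. Without its replicate 2 there were 35 and 36, with 68 remaining, and without its replicate 3 there were 34 and 43, with 74 remaining. Of the 117, 59 were called in each of the 9 fits that left out 1 array. These were 24 of the 61 higher and 35 of the 56 lower probes, and 45 of the 63 that differed at least 2-fold. All 12 of the strongest lower probes and 11 of the 12 strongest higher ones were among them, but these were picked for their size in the same data.

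**Figure D4:**
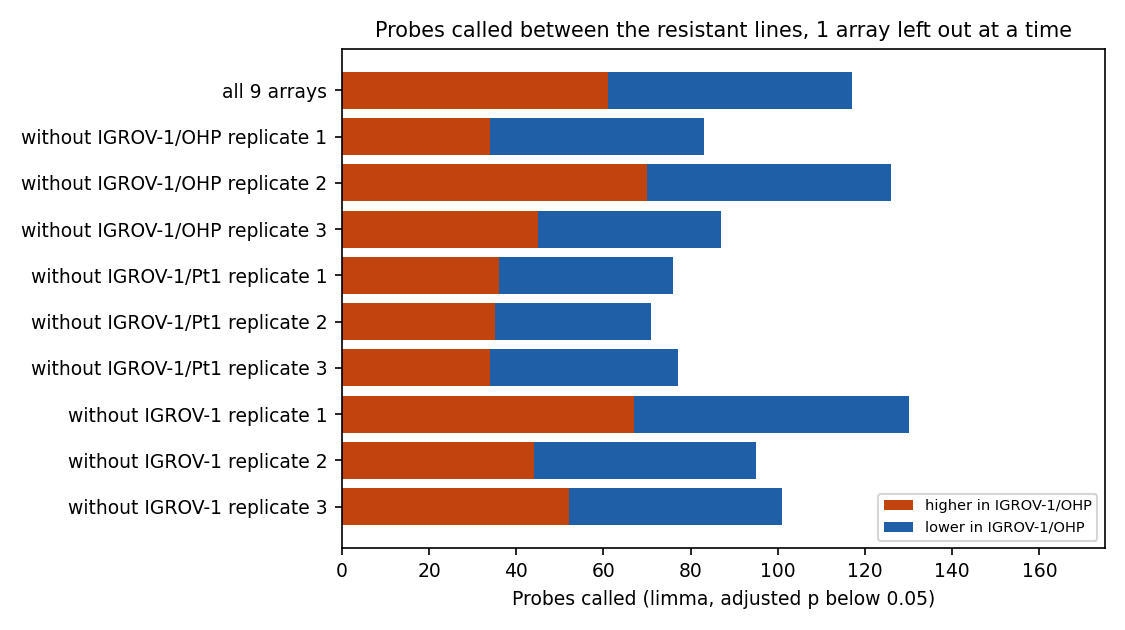
Number of probes called between the resistant lines with all 9 arrays and with each array left out in turn, divided by the direction of the difference. The counts run from 71 without IGROV-1/Pt1 replicate 2 to 130 without parental replicate 1.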

How the data were processed

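MicroRNA levels were measured with 1-colour Illumina bead arrays on biotin-labelled total RNA, 3 samples each of IGROV-1/OHP, IGROV-1/Pt1 and parental IGROV-1. Groups come from the sample titles. The authors deposited linear probe intensities, and the submitters' processing notes name BeadStudio. The normalization is not given in the sources used here. At each rank the sorted arrays agreed to within 2.67%, the form left by quantile normalization, so no normalization was added to the deposited intensities. A second table, with 18 columns that match no sample label, was not used. The plan to use its signals was therefore not run.

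Log2 of the deposited intensities, with no pseudocount, was modelled in limma 3.58.1 (R 4.3.3) with 1 mean per line on all 9 arrays, leaving 6 residual degrees of freedom. The difference between the resistant lines, oxaliplatin minus cisplatin, was moderated with eBayes and tested two-sided, with Benjamini-Hochberg adjustment over all 705 probes. Fold changes come from mean log2 intensities, and levels are single arrays. With 3 arrays per line, the standard error of a log2 difference had a median of 0.20. How much background remains in the intensities is not known, so folds of dim probes may be understated. The rule for probes took the 12 largest differences in each direction among called probes whose arrays did not overlap. Identifiers are printed for the first 2, and the others are given by rank. The planned miRNA lists could not be matched to probes. The comparison, the filter level and the lists were chosen with earlier results of these data known. The code was tested on simulated data. Alternatives covered scaling, background, filter, arrays, variance prior, weights, a replicate block, thresholds and each array left out.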

Additional observations from a re-analysis of the deposited data

Results flagged for a closer look

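The direct test between the resistant lines is also the test of whether their departures from the parental cells differ, and it put the 4 named probes past the threshold. On the log2 scale, oxaliplatin-resistant minus cisplatin-resistant cells gave 6.30 at ILMN_3168483 and 3.64 at ILMN_3167344. It was -6.78 at ILMN_3167656 and -6.42 at ILMN_3167116. Each was named for the size of this difference among the called probes. Passing the threshold was therefore fixed by the selection, and the values are a description.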

How the results depend on the processing

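The 117 calls, 61 higher and 56 lower in IGROV-1/OHP, became 200 with array weights, 116 of them higher. With the replicate number as a block there were 77, 35 of them higher, 75 of which were among the 117. Deviations of same-numbered IGROV-1/OHP and IGROV-1/Pt1 arrays correlated at -0.18, 0.33 and 0.43 for numbers 1, 2 and 3. For IGROV-1/OHP replicates 2 and 3 the same number gave the highest correlation with an IGROV-1/Pt1 array. IGROV-1/OHP replicate 1 correlated best with IGROV-1/Pt1 replicate 2, at 0.12. The block also covers the parental arrays. Same-numbered IGROV-1/OHP and parental arrays correlated at 0.006, 0.121 and 0.047, and same-numbered IGROV-1/Pt1 and parental arrays at -0.091, -0.185 and -0.272. Deviations cancel within a line, so the correlations of an array with the arrays of another line offset each other. Whether a shared number marks samples handled together was not tested. At an adjusted p below 0.01 there were 54 calls, 20 higher and 34 lower, and in a test against a fold of 1.5 there were 41, 13 higher and 28 lower. Both settings are stricter by construction. Leaving out 1 array at a time gave 71 to 130 calls, 34 to 70 higher and 36 to 63 lower, and such fits rest on fewer arrays. Centring on the median log ratio was added after the data were seen. Testing only probes at the filter level on all 9 arrays gave 35 lower calls. Under the other alternatives run, all 3 counts stayed within 1.5 times the reported ones. For the 24 probes described by rank, 584 of 585 recomputed differences kept their direction and stayed past the threshold. This leaves out both stricter settings and any setting whose filter removed the probe. The 24 were picked as the largest called differences of the same data, so this retention is only a description. A neqc alternative was not run, since it needed the unmatched table. The level below which a signal is background is not known from these intensities, which limits folds of dim probes.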
